A study of Mus musculus with 6 samples.

Results

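The genes examined here were 49 mouse genes of the synaptic vesicle release machinery, chosen by symbol: 14 synaptotagmins, the SNARE proteins and complexins, vesicle membrane proteins, synapsins, Rab3 proteins, active zone and priming factors, and proteins that retrieve the vesicle after release. They were found by symbol among the 23282 entries of the deposited count tables, and each of the 49 was present. The RNA came from forebrain hemispheres, without olfactory bulbs and cerebellum, of wild-type C57BL/6J male mice that were 8 to 10 weeks old. Mice were given either chow (the normal chow diet, NCD, 3 libraries) or a high-fat diet (HFD, 3 libraries) over 10 days, and RNA of the forebrain as a whole was sequenced, so that neurons, glia and vessels were measured together. Nothing in the labels says how the 3 libraries of a diet relate to cages or litters, and the p-values below measure only the spread between these libraries.

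A synaptic vesicle is filled with transmitter, tethered at the active zone, primed by Munc13 and RIM proteins and fused with the plasma membrane when calcium enters the terminal. Fusion is driven by the SNARE proteins synaptobrevin, syntaxin and SNAP-25, held in readiness by complexins and triggered by synaptotagmins that bind calcium through their C2 domains. Dynamin, synaptojanin, endophilin, amphiphysin and the clathrin adaptor AP180 then retrieve the membrane. In forebrain, Syt1 is the known fast calcium sensor of most terminals, and Snap25, Stx1a and Vamp2 are the core fusion genes of neurons.

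The libraries were made with a 3′ kit that is primed on the poly(A) tail, and their total counts lay between 6842785 and 9689372. Values are given as CPM, reads scaled to a common library total with TMM factors, and since reads lie at the 3′ end they are not divided by transcript length. CPM of different genes are not read here as a ranking of their expression. They were set against each other to choose which gene of a role to describe. Reads of related genes are also given as shares, to follow these shares between libraries. A count of 3, taken as the floor, was worth 0.316 to 0.431 CPM, and this floor and all counting intervals cover counting error only, since the reads carry no molecular identifiers. Differences between diets are log2 fold changes of HFD against NCD fitted by edgeR over all 13771 genes that passed the count filter, with p-values from its quasi-likelihood test and adjustment by Benjamini-Hochberg over all of them. In tissue with many cell types, fewer cells of a type and less RNA per cell cannot be told apart.

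HFD replicate 3 stood apart from the other libraries before any release gene was considered. The anterior pituitary markers summed to 1262 CPM there and to 2.07 to 8.94 CPM in the other 5 libraries. The hypothalamic markers summed to 26.6 CPM in that library and to 66.3 to 106.7 CPM elsewhere, and the midbrain and hindbrain markers to 14.7 CPM against 33.2 to 49.5 CPM. Of the 7 midbrain and hindbrain markers tested, 4 (Th, Slc6a4, Tph2 and Foxa2) had an unadjusted p under 0.05 by edgeR, all with lower levels on the HFD. Slc6a4 was low in HFD replicate 2 too, with 1.36, 3.88 and 5.68 CPM on the NCD and 2.16, 0.327 and 0.137 CPM on the HFD. The 9 neuron markers summed to 4038 CPM in HFD replicate 3 and to 4075 to 4377 CPM in the others, and 0 of these 9 had an unadjusted p under 0.05. Red cell markers summed to 421 to 518 CPM on the NCD and 543 to 823 CPM on the HFD, with an unadjusted p under 0.05 for 4 of 5. Of the 5 liver markers tested, 4 had an unadjusted p under 0.05 with lower levels on the HFD, among them Alb with 3.89 to 26.8 CPM on the NCD and 1.78 to 5.46 CPM on the HFD. Olfactory bulb markers summed to 32.1 CPM in NCD replicate 2, 14.5 CPM in HFD replicate 2 and 2.06 to 6.94 CPM in the other 4 libraries. The part of these differences in the results below was not tested, and the calls and the largest differences that rest on HFD replicate 3 are given with and without it.

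After 10 days of HFD, none of the 48 release genes that could be tested had an adjusted p under 0.05, and the smallest adjusted p was 0.979 (edgeR, quasi-likelihood, Benjamini-Hochberg). Over all genes 0% passed this threshold. At an unadjusted p under 0.05, 4 of 48 release genes (8.33%) were called, beside 3.68% of all genes tested. Syp and Syt16 were the 2 with higher levels on the HFD (4.17%, beside 1.71% of all genes), and Sv2a and Unc13a the 2 with lower levels (4.17%, beside 1.98%). DESeq2 gave 0 adjusted and 3 unadjusted calls, without Syt16, the unadjusted calls beside 2.72% of all genes. Quantile normalization with limma gave 0 adjusted and 0 unadjusted calls, the latter beside 4.26% of all genes, with a smallest unadjusted p of 0.0652. Scaling by library size alone left Sv2a and Unc13a, beside 3.3% of all genes. The 95% interval of the log2 fold change lay wholly inside a 1.5-fold change in either direction for 42 of 48 release genes (87.5%), beside 62.5% of all genes. Their median standard error was 0.119 and that of all genes 0.160, and their median mean count was 1489 against 182.5 reads. The log2 fold change was below 0 for 33 of 48 (68.8%), beside 50.6% of all genes. Its median was -0.06 over the release genes and -0.00245 over all genes, and without HFD replicate 3 the median of the release genes was 0.00253. The values ran from -0.34 for Syt12 to 0.68 for Syt10.

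**Figure D1:**
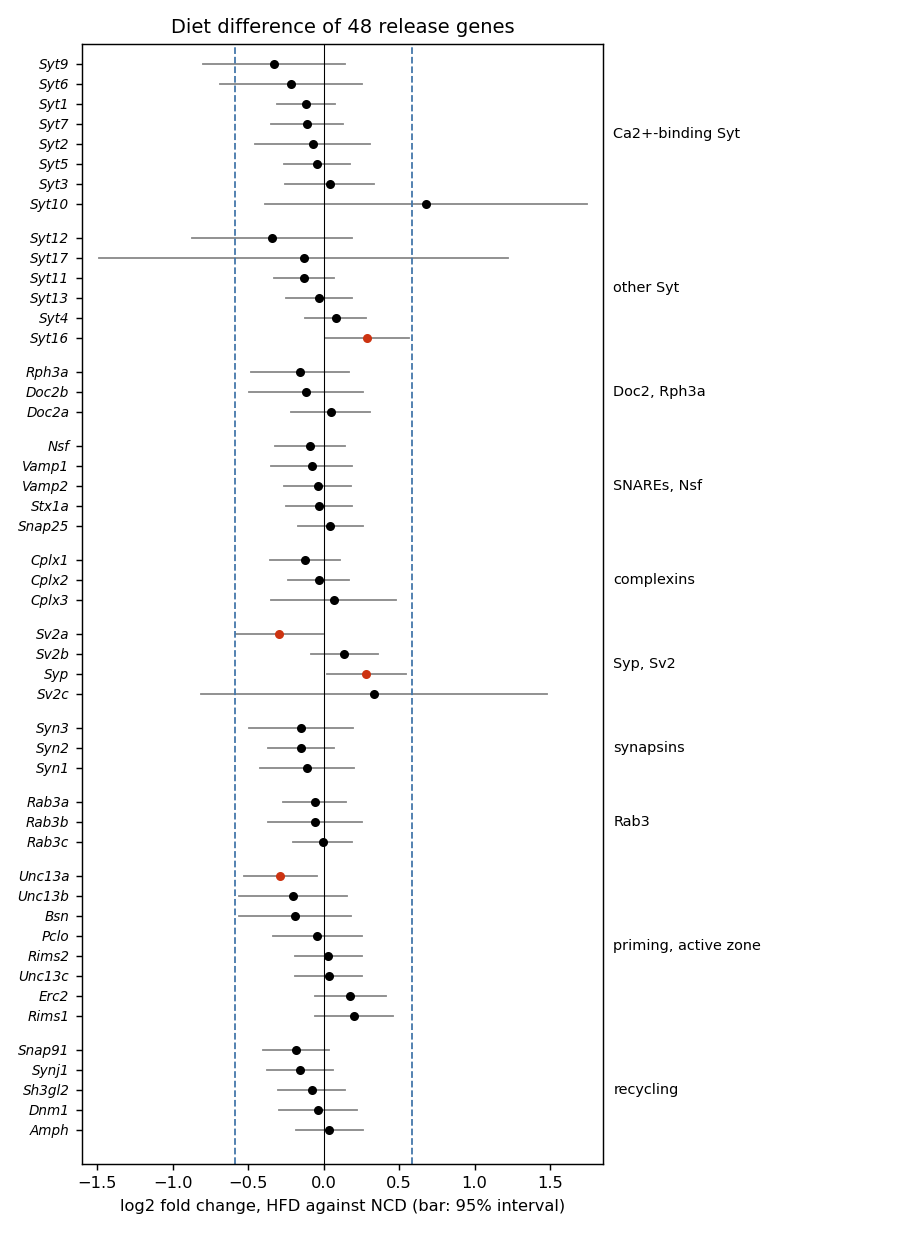
Log2 fold change of HFD against NCD for the 48 release genes tested, grouped by role, with the 95% interval from edgeR's quasi-likelihood fit as a bar; dashed lines mark a 1.5-fold change and red points an unadjusted p under 0.05. The intervals of 42 genes lie between the dashed lines, and the 4 red points are Syt16, Sv2a, Syp and Unc13a.

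Among the synaptotagmins that bind calcium, 0 of 8 had an unadjusted p under 0.05. Syt1, the fast calcium sensor, lies on chromosome 10 from 108497650 to 109010982 of GRCm38 and had 2387, 2238 and 2664 CPM in NCD replicates 1, 2 and 3. On the HFD it had 2332, 2283 and 2110 CPM. The ranges of the diets overlapped, and the log2 fold change was -0.12 (standard error, SE, 0.09; 95% interval -0.31 to 0.08). Syt1 took 46.6% ± 1.08 of the reads of the 14 synaptotagmins examined here on the NCD and 46.0% ± 0.432 on the HFD (SD, n = 3). Syt7, a slower sensor linked to asynchronous release and facilitation, had 433 to 503 CPM on the NCD and 364 to 478 CPM on the HFD. Syt5 had one of the narrowest ranges of all release genes, with 127, 136 and 138 CPM on the NCD and 128, 136 and 124 CPM on the HFD. Syt2 and Syt3 had log2 fold changes of -0.07 and 0.04.

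The remaining calcium-binding synaptotagmins gave few reads. Syt9 had 10.6, 21.1 and 16.0 CPM on the NCD and 14.2, 13.5 and 10.3 CPM on the HFD. NCD replicates 1 and 2 differed more from each other than the HFD libraries did, and its log2 fold change of -0.33 (SE 0.22, p 0.158 by edgeR) moved to -0.55 (p 0.0189) without NCD replicate 1 and to -0.07 without NCD replicate 2. Syt6 had 10.1, 12.9 and 11.4 CPM on the NCD and 12.4, 10.6 and 6.73 CPM on the HFD, so that its low HFD mean came from replicate 3. Without that library its log2 fold change went from -0.21 to -0.00718. Syt10, known from activity-induced expression, had 1.36, 2.58 and 0.526 CPM on the NCD and 1.72, 3.16 and 2.20 CPM on the HFD. Its log2 fold change of 0.68 (SE 0.50) was the highest of the release genes, but its interval ran from -0.39 to 1.75, and it was 1.36 (unadjusted p 0.0325) without NCD replicate 2 and 0.27 without NCD replicate 3.

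Of the 6 other synaptotagmins, most of which lack calcium binding, Syt16 was the only one with an unadjusted p under 0.05. Syt16 lies on chromosome 12 from 73997661 to 74273267 and had 44.1, 42.7 and 40.3 CPM on the NCD and 43.8, 50.7 and 60.5 CPM on the HFD. The lowest HFD value lay inside the NCD range, and the other 2 lay above it. Its log2 fold change was 0.29 (SE 0.13, unadjusted p 0.0437), and without HFD replicate 3 it was 0.16 (p 0.186). Over the fits that leave out 1 library, the p was under 0.05 only without HFD replicate 1, and from 0.0643 to 0.186 otherwise. Gm29587 has an exon on the opposite strand that overlaps Syt16, and since the sources do not state that counting used strand, reads of the pair cannot be told apart. Syt11, a synaptotagmin of vesicle trafficking, had 1519, 1470 and 1654 CPM on the NCD and 1506, 1451 and 1288 CPM on the HFD, with a log2 fold change of -0.13 (SE 0.09). Syt11 took 29.7% ± 0.154 of the reads of the 14 synaptotagmins examined here on the NCD and 29.0% ± 0.577 on the HFD (SD, n = 3). Syt4 had 303 to 329 CPM on the NCD and 326 to 340 CPM on the HFD, and Syt13 had 161 to 181 CPM and 162 to 180 CPM. Syt12 had 7.52, 5.81 and 7.47 CPM on the NCD and 4.31, 6.11 and 5.90 CPM on the HFD, with a log2 fold change of -0.34 and an interval of -0.87 to 0.19. Syt17 was near the floor, with 0.215 to 1.999 CPM over the 6 libraries.

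The C2-domain proteins outside the synaptotagmins were the Doc2 proteins, high-affinity calcium sensors of spontaneous release, and rabphilin, which binds Rab3. Rph3a, the rabphilin gene, had 222, 201 and 250 CPM on the NCD and 248, 212 and 144 CPM on the HFD. HFD replicate 3 alone lay below the NCD range. The log2 fold change of -0.16 (SE 0.15) became 0.03 without that library, and it was -0.33 (unadjusted p 0.0482, edgeR) without HFD replicate 1. Doc2a and Doc2b had log2 fold changes of 0.05 and -0.11.

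Of the 5 core fusion genes, 0 had an unadjusted p under 0.05. Snap25 had 1476, 1478 and 1200 CPM on the NCD and 1365, 1373 and 1549 CPM on the HFD, so that its lowest and highest levels were in NCD replicate 3 and HFD replicate 3. Its log2 fold change was 0.05 (95% interval -0.17 to 0.26). Vamp2 had 535 to 666 CPM on the NCD and 534 to 619 CPM on the HFD, and Stx1a had 153 to 176 CPM and 154 to 163 CPM. Vamp1 took 25.3% ± 3.35 of the summed Vamp1 and Vamp2 reads on the NCD and 24.5% ± 2.08 on the HFD (SD, n = 3). Nsf, the ATPase that takes SNARE complexes apart, had 673 to 706 CPM on the NCD, and on the HFD 701 and 717 CPM in replicates 1 and 2 and 540 CPM in replicate 3. The intervals of all 5 genes excluded a 1.5-fold change.

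The complexins, which clamp and then assist the SNARE complex, had log2 fold changes of -0.12 for Cplx1, -0.03 for Cplx2 and 0.07 for Cplx3. Cplx2 had 721, 642 and 629 CPM on the NCD and 669, 627 and 653 CPM on the HFD. Cplx1 had its highest level, 502 CPM, in NCD replicate 3 and its lowest, 374 CPM, in HFD replicate 3.

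The vesicle membrane proteins held 2 of the 4 unadjusted calls, and these pointed in opposite directions. Syp, the gene of synaptophysin and a common marker of presynaptic vesicles, lies on chromosome X from 7638471 to 7653256. It had 228, 198 and 159 CPM on the NCD and 224, 241 and 246 CPM on the HFD. HFD replicate 1 lay below NCD replicate 1, so the diets overlapped, and the low value of NCD replicate 3 set much of the distance between the means of 194.9 ± 34.8 and 236.9 ± 11.3 CPM (SD, n = 3). The log2 fold change was 0.28 (SE 0.12, unadjusted p 0.0360), and without NCD replicate 3 it was 0.15 (p 0.195). The p was also above 0.05 without NCD replicate 2 (0.0635) or HFD replicate 2 (0.0890). An exon of Gm14703 overlaps Syp on the opposite strand.

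Sv2a, a vesicle glycoprotein and the binding site of the drug levetiracetam, lies on chromosome 3 from 96181151 to 96195521. It had 435, 416 and 577 CPM on the NCD and 433, 416 and 316 CPM on the HFD. Replicates 1 and 2 of the diets were nearly equal, and NCD replicate 3 and HFD replicate 3 held the highest and the lowest value of the 6. The log2 fold change was -0.29 (SE 0.14, unadjusted p 0.0469). It was -0.35 (p 0.0507) without HFD replicate 2, -0.13 (p 0.333) without NCD replicate 3, -0.17 (p 0.175) without HFD replicate 3, and -0.00297 (p 0.966) without replicate 3 of both diets.

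Sv2b, its close relative, had 252, 221 and 239 CPM on the NCD and 246, 252 and 285 CPM on the HFD, with a log2 fold change of 0.14 (SE 0.10). Sv2a took 63.3%, 65.3% and 70.7% of the summed Sv2a and Sv2b reads in NCD replicates 1, 2 and 3 and 63.8%, 62.3% and 52.5% in the HFD replicates. The exact 95% binomial interval of a single library ran from 51.0% to 54.0% in HFD replicate 3 and from 69.7% to 71.7% in NCD replicate 3. These libraries differed from the others of their own diet by more than counting error. Sv2c, known from basal ganglia and brain stem, had 0.493 to 1.75 CPM over the 6 libraries, and its log2 fold change of 0.34 had an interval of -0.81 to 1.48.

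**Figure D2:**
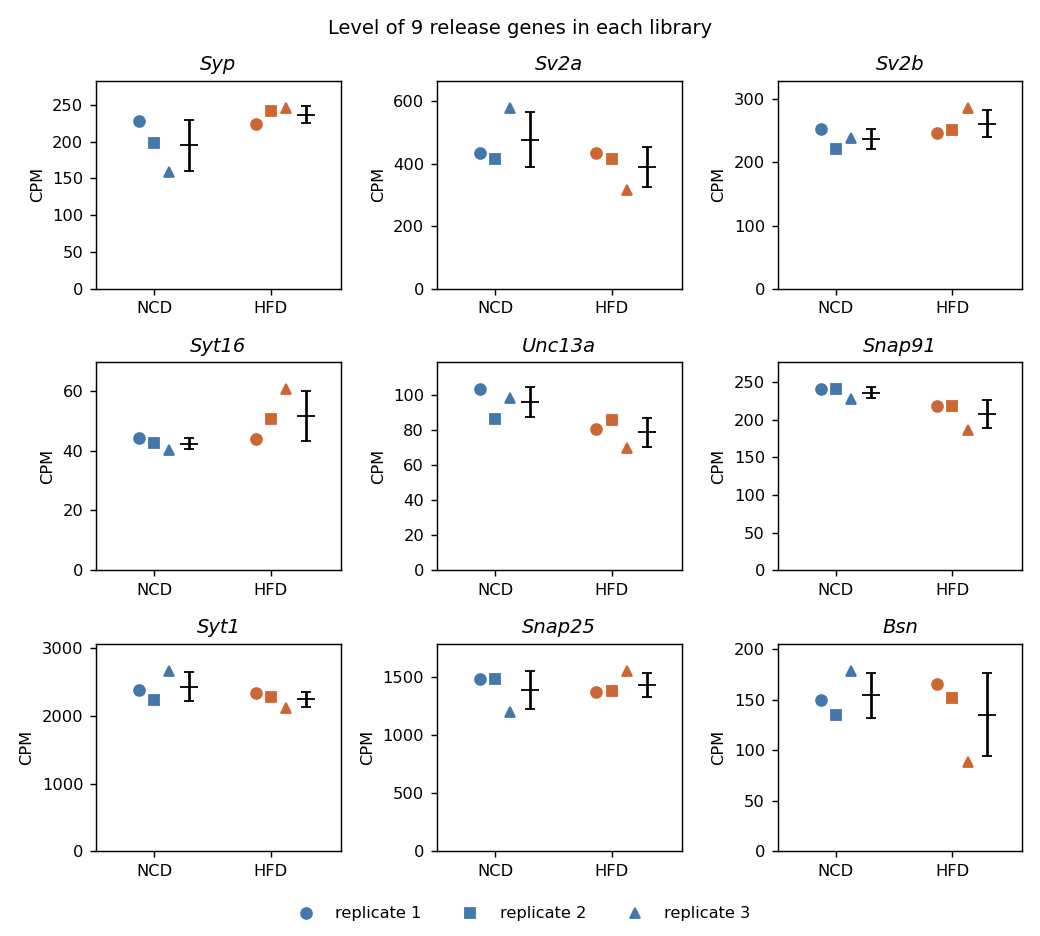
CPM of 9 release genes in each library, with circles, squares and triangles for replicates 1, 2 and 3 and the mean ± SD of the 3 libraries of a diet as a black bar; each axis starts at 0. In the Sv2a panel replicates 1 and 2 are level between the diets, while the NCD triangle is at 577 CPM and the HFD triangle at 316 CPM.

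The synapsins, phosphoproteins that hold the reserve pool of vesicles, were lowest in HFD replicate 3 in 3 of 3 genes. Syn1 had 193, 186 and 191 CPM on the NCD and 209, 194 and 125 CPM on the HFD. Its NCD values lay within a few CPM of each other and HFD replicates 1 and 2 lay above them, while HFD replicate 3 lay below. Syn2 had 230, 217 and 249 CPM on the NCD and 220, 212 and 197 CPM on the HFD, with a log2 fold change of -0.15 (SE 0.10). Syn3 had 19.6 to 22.9 CPM on the NCD and 14.96 to 21.8 CPM on the HFD.

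The Rab3 genes, small GTPases that tether vesicles to the active zone, had 0 of 3 unadjusted calls. Rab3a had 786, 800 and 831 CPM on the NCD and 831, 800 and 688 CPM on the HFD, with a log2 fold change of -0.06 (SE 0.10). Rab3c, with one of the narrowest ranges, had 571, 563 and 596 CPM on the NCD and 574, 600 and 551 CPM on the HFD, with a log2 fold change of -0.00414 and an interval of -0.20 to 0.19. Rab3a took 58.3% ± 0.388 of the summed Rab3a and Rab3c reads on the NCD and 57.3% ± 1.80 on the HFD (SD, n = 3). Rab3b had a log2 fold change of -0.06.

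Among the priming and active zone genes, Unc13a was the only one with an unadjusted p under 0.05 and the smallest p of all release genes. Unc13a encodes Munc13-1, the main priming factor of forebrain glutamate synapses, and lies on chromosome 8 from 71624417 to 71671757 on the minus strand. It had 103, 86.1 and 98.3 CPM on the NCD and 80.6, 85.4 and 69.3 CPM on the HFD. The HFD values all lay below the NCD values, with 85.4 and 86.1 CPM as the nearest pair. The means were 95.8 ± 8.66 and 78.5 ± 8.28 CPM (SD, n = 3), and the log2 fold change was -0.29 (SE 0.12, 95% interval -0.53 to -0.04, unadjusted p 0.0242). With 1 library left out at a time it stayed between -0.36 and -0.20, and the unadjusted p between 0.0151 and 0.113. The p was 0.113 without NCD replicate 1, 0.0563 without NCD replicate 3 and 0.0665 without HFD replicate 3. Without replicate 3 of both diets it was -0.18 (p 0.0705). Colgalt1 has an exon that overlaps Unc13a on the opposite strand.

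Unc13c, a Munc13 gene best known from cerebellum, had 102, 89.8 and 96.2 CPM on the NCD and 104, 96.9 and 93.6 CPM on the HFD. Unc13a took 50.2%, 49.0% and 50.5% of the summed Unc13a and Unc13c reads in NCD replicates 1, 2 and 3, against 43.6%, 46.9% and 42.5% in the HFD replicates. Every HFD library lay below every NCD library in this share, with means of 49.9% ± 0.840 and 44.3% ± 2.24 (SD, n = 3). The share holds the same Unc13a reads as the call above, so its separation is not independent of that call. The exact binomial intervals of the nearest libraries overlapped. They ran from 44.4% to 49.3% in HFD replicate 2 and from 46.5% to 51.4% in NCD replicate 2. How often such shares separate over all genes was not tested. Unc13b had 18.2 to 23.8 CPM on the NCD and 14.95 to 21.7 CPM on the HFD.

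The large scaffolds of the active zone were low in a single library. Bsn, the bassoon gene, had 149, 135 and 179 CPM on the NCD and 166, 152 and 88.3 CPM on the HFD, and Pclo, the piccolo gene, had 350, 305 and 310 CPM and 360, 346 and 231 CPM. In both, HFD replicates 1 and 2 lay within or above the NCD range and HFD replicate 3 lay below it. Without HFD replicate 3 the log2 fold change of Bsn went from -0.19 to 0.04 and that of Pclo from -0.04 to 0.14. Erc2, which encodes the scaffold protein CAST, went the other way in that library, with 232 to 256 CPM on the NCD and 243, 268 and 310 CPM on the HFD. Rims1 had a log2 fold change of 0.20 (SE 0.12) and Rims2, with 139, 122.5 and 138 CPM on the NCD and 130, 138 and 140 CPM on the HFD, one of 0.03. Rims3 did not pass the count filter, with 1, 0 and 0 reads on the NCD and 0, 2 and 3 reads on the HFD, which is at or under the floor in every library.

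The recycling genes had 0 of 5 unadjusted calls. Snap91, the gene of the clathrin adaptor AP180 that sizes retrieved vesicles, lies on chromosome 9 from 86765923 to 86880654. It had 240, 240 and 227 CPM on the NCD and 218, 219 and 187 CPM on the HFD. Its HFD values were all below its NCD values, and the log2 fold change was -0.18 (SE 0.10, unadjusted p 0.0989), and -0.11 without HFD replicate 3. Unc13a and Snap91 were the 2 of 48 release genes (4.17%) whose HFD values all lay below the NCD values, beside 4.49% of all genes, and 0 of 48 lay wholly above, beside 4.31%. For any single gene with 3 libraries a diet, the exact permutation test can go no lower than a two-sided p of 0.1. Synj1, which encodes the phosphatase synaptojanin 1, had 1180, 1110 and 1235 CPM on the NCD and 1150, 1106 and 906 CPM on the HFD. Its log2 fold change was -0.16 (SE 0.10), and -0.06 without HFD replicate 3. Dnm1, Amph and Sh3gl2 had log2 fold changes of -0.04, 0.04 and -0.08.

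A pattern over the release genes, noticed after their values were seen and given as a description, was that 26 of 48 (54.2%) had their lowest level in HFD replicate 3, beside 27.2% of all genes tested. The other libraries held the lowest level of 1 to 9 release genes each. NCD replicate 3 held the highest level of 14 of 48 (29.2%), beside 21.4% of all genes. The 26 included 7 synaptotagmins (Syt1, Syt3, Syt5, Syt6, Syt7, Syt9 and Syt11), the 3 synapsins, Bsn and Pclo, and 4 of the 5 recycling genes. HFD replicate 3 also held the highest level of 9 of 48 (18.8%), beside 26.2% of all genes: Syt4, Syt16, Snap25, Cplx3, Syp, Sv2b, Rims1, Rims2 and Erc2. On log2(CPM + 1), the median release gene was 0.13 below the median of the 6 libraries in HFD replicate 3, and within 0.03 of it in each of the other libraries. The 49 genes summed to 15711, 15196 and 16097 CPM on the NCD and 15637, 15321 and 13910 CPM on the HFD. HFD replicates 1 and 2 lay within the NCD range, and HFD replicate 3 below it.

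**Figure D3:**
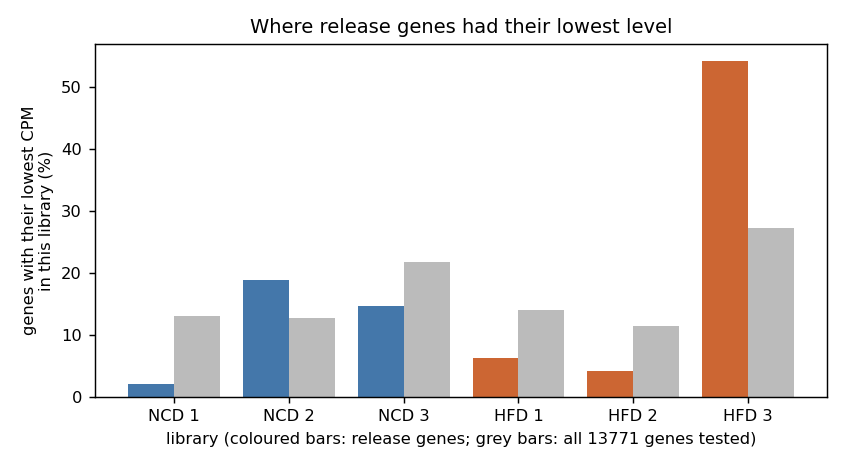
Share of genes with their lowest CPM in each library, for the 48 release genes (coloured bars) and for all 13771 genes tested (grey bars). HFD replicate 3 holds 54.2% of release genes against 27.2% of all genes, and NCD replicate 1 holds 2.08% against 13.1%.

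**Figure D4:**
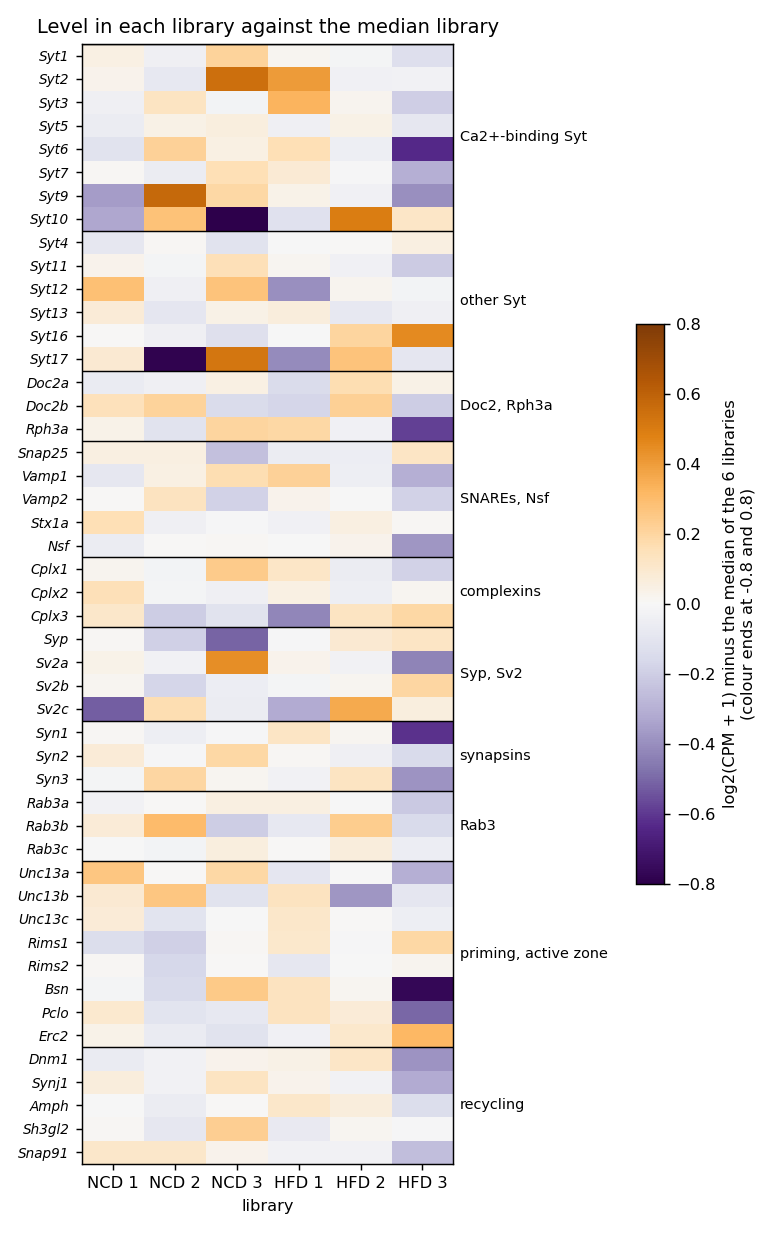
Level of each release gene in each library on log2(CPM + 1), relative to the median of its 6 libraries, with orange above and purple below and the colour ending at 0.8 in either direction; genes are grouped by role. The HFD replicate 3 column is mostly purple, with Syt16 and Erc2 as the strongest orange exceptions.

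GC content moved with the level in HFD replicate 3. The 26 release genes that were lowest there had a median GC content of 52.4% in their longest annotated transcript, and the other 22 had 47.7%. Over all genes with a transcript the same medians were 53.0% and 48.3%. Across all these genes the deviation of HFD replicate 3 had a Spearman rho of -0.34 with GC content and of -0.27 with transcript length. Across the 48 release genes the values were -0.33 and -0.08. For NCD replicate 3 the rho with GC was 0.19 over all genes and 0.34 over the release genes. Genes of a library are not independent, and these correlations carry no test. In the range of 45% to 50% GC, 19 release genes had a median deviation of -0.13 in HFD replicate 3, beside 0.01 for all 3445 genes of that range. The part of GC content and of the uneven marker levels in this pattern was not tested.

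**Figure D5:**
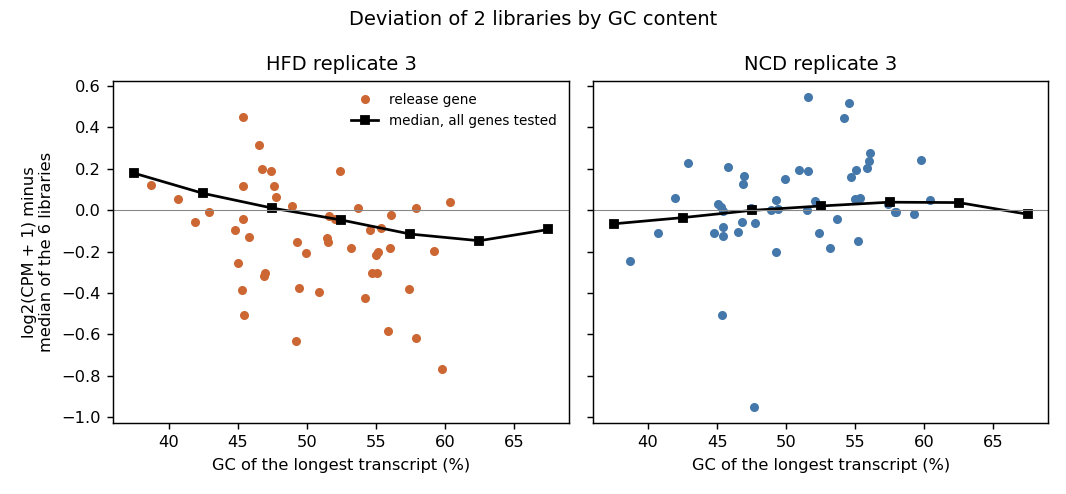
Deviation of HFD replicate 3 and of NCD replicate 3 from the median of the 6 libraries on log2(CPM + 1), against the GC content of the longest transcript; points are release genes and black squares the median of all genes tested in ranges of 5 points of GC. In HFD replicate 3 the squares fall from 0.18 at 35% to 40% GC to -0.15 at 60% to 65% GC, and from 40% to 60% GC the median release gene of each range lies below them.

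Promoter sequence was available from RefSeq on GRCm38.p6, from 250 bases before to 50 after the start, for 37 of the 49 genes. Syt5, Syn3, Syt12, Rims2, Syt4, Doc2a, Doc2b, Vamp2, Syt7, Syt17, Syt13 and Snap25 had no entry. On either strand, 30 of 37 (81.1%) held the GC box GGGCGG, against 38.2% of 27025 genes, and 2 of 37 (Rab3b and Sv2b, 5.41%) held TATAAA, against 15.7%. The cyclic AMP element TGACGTCA was in 2 of 37 (Sh3gl2 and Syn1, 5.41%), against 2.03%. RE1, the element bound by the repressor REST that keeps neuronal genes silent outside neurons, was searched as TTCAGCACC and GGACAGCGC with 2 free bases between them and at most 5 mismatches over these 18 letters. It was found in 6 of 37 (16.2%: Rph3a, Syn1, Syt2, Syt3, Syt6 and Unc13a), against 4.06% of genes. The 27025 are all genes with a promoter entry, not only the 13771 genes tested, and shares over the genes tested were not taken. A match is a description of the letters and says nothing of binding in these samples.

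The 3 windows with the fewest mismatches, of Syn1, Rph3a and Syt6, are shown, followed by a window of Unc13a from a separate search with other gaps. In the search above, Unc13a had 5 mismatches, as did Syt2 and Syt3, which are not shown. In the first 3, capitals mark the matched stretch, and each is printed 5′ to 3′ in the direction of the motif. In Unc13a both motif parts, in capitals, were present without mismatch but with 8 bases between them, an arrangement that 4 of 27025 genes (0.0148%) held with a gap of up to 20 bases.
Syn1: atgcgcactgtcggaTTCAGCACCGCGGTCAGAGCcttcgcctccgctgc
Rph3a: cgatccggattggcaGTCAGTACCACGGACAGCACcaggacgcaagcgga
Syt6: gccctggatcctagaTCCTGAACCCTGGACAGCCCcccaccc
Unc13a: gcTTCAGCACCgggggcgcGGACAGCGCct
The Syn1 window is chrX:20921116-20921165 on the minus strand, with 2 mismatches (A14T and C18A, positions counted from 1 at the motif's 5′ end, the motif's letter first). The Rph3a window is chr5:121009599-121009648 on the plus strand, with 3 mismatches (T1G, C6T and G19A), and the Syt6 window chr3:103575876-103575917 on the minus strand, with 4 (T2C, A4T, C6A and G19C). The Unc13a window is chr8:71671725-71671754 on the plus strand, opposite to the gene.

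The other genes of the release and recycling pathway were followed on a list of 98, of which 97 were in the tables and 88 were tested. Of these, 0 had an adjusted p under 0.05 and 2 (2.27%) had an unadjusted p under 0.05, beside 3.68% of all genes tested. Snap23, a widely expressed relative of Snap25, had 4.19, 4.20 and 3.47 CPM on the NCD and 4.60, 6.98 and 6.31 CPM on the HFD, with a log2 fold change of 0.60 (SE 0.28, unadjusted p 0.0461). Sytl4, a synaptotagmin-like Rab27 effector known as granuphilin, had 2.22, 3.12 and 1.999 CPM on the NCD and 0.431, 1.75 and 0.961 CPM on the HFD, with a log2 fold change of -1.16 (SE 0.49, unadjusted p 0.0295). Sytl4 had 18, 29 and 19 reads on the NCD and 3, 16 and 7 reads on the HFD, so that HFD replicate 1 was at the floor. In both genes the diets did not overlap. Such separation was seen for 5 of 88 with the HFD above (5.68%, beside 4.31% of all genes) and 6 of 88 with the HFD below (6.82%, beside 4.49%). The latter included Stxbp5, the tomosyn gene, with 64.9, 67.4 and 65.0 CPM on the NCD and 60.8, 58.6 and 52.6 CPM on the HFD. The median log2 fold change of the 88 was -0.03, and 71 (80.7%) had an interval inside a 1.5-fold change, beside 62.5% of all genes tested.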

How the data were processed

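The authors prepared QuantSeq 3′ libraries from total RNA, trimmed adaptors, mapped reads with Bowtie2 to mm10, and counted unique and multiple alignments per gene with Bedtools. The deposited values are whole-number read counts per gene symbol, 1 library per file, without normalization. Annotation and use of strand are not given in the sources used here, and the labels give no batch.

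The 3 HFD and 3 NCD libraries were compared in R 4.3.3 with edgeR 4.0.16 on the deposited counts. The filter filterByExpr (minimum count 10, minimum total count 15) kept 13771 of 23282 entries, TMM factors were used, and glmQLFit and glmQLFTest gave two-sided p-values with Benjamini-Hochberg adjustment over all genes tested. Standard errors are the log2 fold change over the square root of F. Alternatives were DESeq2 1.42.0, quantile normalization with limma 3.58.1, other scalings and filters, robust estimation, a replicate block, and libraries left out. Total counts of 6842785 to 9689372 set the precision, and chi-square per degree of freedom between replicates was 3.55 to 16.7, so no library repeats another.

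The genes and lists were chosen with earlier results of these data known. Genes named with values are those with an unadjusted p under 0.05 or separate diets, the 3 highest and 3 lowest fold changes, the highest CPM of each role, and the 5 widest and 5 narrowest ranges among those with a mean count of at least 50. Others were chosen after their values were seen. Positions, overlaps, GC and length come from GENCODE vM21 on GRCm38. Exons of 18 of the 49 genes are overlapped on the other strand, and Bsn by Gm47303 on the same strand. In the last 500 bases, 4 genes (Syt17, Snap25, Rab3c and Vamp1) share any 50-base stretch with another gene. Member tables used pandas 2.3.3, numpy 2.4.6 and scipy 1.17.1 in Python 3.11.15, and plots matplotlib 3.10.9. The values of 1 further pathway gene are not reported here.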

Additional observations from a re-analysis of the deposited data

How the results depend on the processing

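No release gene had an adjusted p under 0.05 in any of the 16 alternatives. The number with an unadjusted p under 0.05, 4 in the report, was 3 with DESeq2, 0 with quantile normalization and limma, and 2 (Sv2a and Unc13a) with library size alone. Over all genes the share was 3.68% in the report and 2.72%, 4.26% and 3.3% in these fits. The number was 0 without NCD replicate 3 and HFD replicate 3 together, beside 5.31% of all genes, an alternative chosen after seeing the data. With 1 library left out it ran from 0 (without NCD replicate 3, beside 2.95% of all genes) to 6 (without HFD replicate 1, beside 5.46%). It was 1 without HFD replicate 3 (Syp, beside 3.17% of all genes) or HFD replicate 2 (Unc13a, beside 4.03%). Genes with separate diets, 2 in the report, numbered 5 with library size alone, 3 to 11 with 1 library left out, and 9 without replicate 3 of both diets. With fewer libraries in a diet, values separate more easily whatever the diet. The share over all genes was not taken for any of these fits, the fit with library size alone included. Their higher counts therefore do not show more separation by diet. The number with an interval inside a 1.5-fold change, 42 in the report, was 33 to 42 with 1 library left out and 35 with quantile normalization. The share of all genes was 62.5% in the report and is not given here for the other fits. The median log2 fold change was -0.06 in the report. It was lowest, -0.0856, with HFD replicate 2 left out, highest, 0.00253, with HFD replicate 3 left out, and 0.0380 without replicate 3 of both diets. Of the further pathway genes, 2 had an unadjusted p under 0.05 in the report, 1 with DESeq2, library size alone or at least 10 counts in every library, 1 to 4 with 1 library left out, and 8 without replicate 3 of both diets. The share of all genes was 3.65% with at least 10 counts in every library. It was 2.95% to 5.46% with 1 library left out and 5.31% without replicate 3 of both diets. The causes were not tested, apart from fewer libraries or genes entering a fit.

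With the replicate number as a block, 2 release genes (Syp and Unc13a) and 1 further pathway gene had an unadjusted p under 0.05, beside 2.69% of all genes. The intervals of 37 release genes lay inside a 1.5-fold change, and the share of all genes in this fit is not given here. Deviations of same-numbered libraries from the mean of their diet had correlations of -0.04, 0.03 and -0.07. With 3 libraries a diet these cannot show whether same-numbered libraries shared a cage or a batch, and the labels do not say. HFD replicates 1 and 3 correlated best with NCD libraries of another number.

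For the 25 genes named and fitted, 396 alternative values were compared by direction and by side of an unadjusted p of 0.05. Of these, 366 kept both or changed sign without a call on either side (19), while 27 lost a call, 3 gained a call and 0 reversed with a call. Only Syt16, Syp, Sv2a and Unc13a had a call in the report, so all 27 losses fall on these 4 genes. The other named genes had no call to lose, so the 366 do not measure how stable the calls were. The intervals of Syt6, Syt9, Syt10, Syt12, Syt17 and Sv2c, with mean counts of 9.33 to 122, reached past a 1.5-fold change, while those of Cplx3 (116) and Doc2b (133) did not.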
